A study of Rattus norvegicus with 18 samples.

Results

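The comparison was made between whole brains of rats labelled SHR, the spontaneously hypertensive rat, at 6 weeks of age and whole brains of rats with the same label at 3 weeks. It held 6 of the 18 arrays of the series, 3 at each age, chosen by their sample titles with the labels as deposited. The other 12 arrays were of the normotensive Wistar Kyoto rat (WKY) and of the stroke-prone SHR (SHRSP), each with 3 arrays at 3 weeks and 3 at 6 weeks. All 6 groups were untreated inbred rats, and total RNA of whole brain was labelled with Cy3 and hybridised to 1-colour Agilent oligonucleotide arrays. The labels call the 3 arrays of a group biological replicates and do not say whether an array holds the RNA of 1 animal. They give no sex and no colony of origin.

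Between these ages the rat brain passes from weaning into adolescence. Oligodendrocytes, the glia that wrap axons in myelin, are still producing membrane, neurons are refining their synapses and ion channels, and cell division has largely ended outside a few niches. Myelin membrane is rich in cholesterol, which brain cells make themselves because plasma lipoproteins do not cross the blood-brain barrier. SHR and SHRSP descend from WKY stock, and inbred lines of this kind differ at fixed alleles, so that a probe can be bright in the brain of 1 line and dim in that of another at any age.

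Levels are given throughout as the log2 of the scanner's processed intensity minus the 75th percentile of the same array, so that 0 is the level of a bright probe and dim probes are near −8. A difference is the mean of the 6 week arrays minus the mean of the 3 week arrays on that log2 scale, with its standard error (SE) from 1 limma fit over all 18 arrays. A gene was called where its limma p, adjusted by Benjamini-Hochberg over the 21180 genes tested, was under 0.05. Levels were not compared between genes, because probes differ in how brightly they hybridise.

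The arrays differed in more than age and strain. Between 81.8% and 87.5% of spots were well above background on an array, none was saturated, and replicate arrays correlated at r between 0.993 and 0.998. The SHR arrays at 6 weeks were all on slide 4 and scanned on the second of 3 scan days, whereas SHR at 3 weeks had replicate 1 on slide 1 and replicates 2 and 3 on slide 2, all of the first scan day. Scan day and age of the SHR rats therefore cannot be told apart. The first principal component, with 33.4% of the variance, set the arrays of slides 1 and 4 apart from all others. SHR replicate 1 of 3 weeks stood at 13.7 on it and replicates 2 and 3 at −24.7 and −24.5, while the 6 week SHR arrays stood between 33.4 and 35.2. Markers of brain were present: of 25 myelin, 20 astrocyte and 22 synaptic vesicle genes listed, 24, 19 and 21 were well above background on all 6 SHR arrays. At probes such as those of Agtrap, Vegfb and Ephx2, SHR at 3 weeks lay near SHRSP at 6 weeks and SHR at 6 weeks near SHRSP at 3 weeks. The SHR and SHRSP labels of one age may therefore be exchanged, which was not tested. The labels were kept as deposited, and any difference given here for SHR may hold a strain difference that cannot be told apart from that of age.

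**Figure D1:**
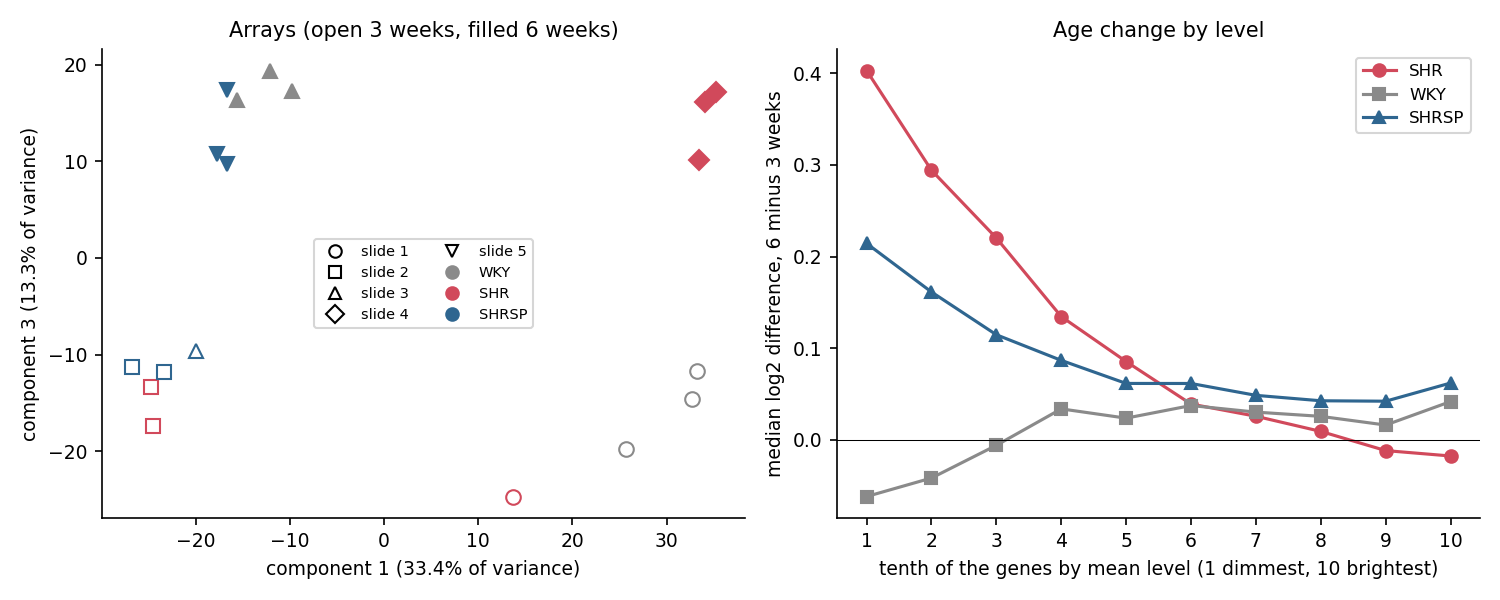
Left, the 18 arrays on components 1 and 3 of the gene levels, with the slide as symbol, the strain as colour and the age as open (3 weeks) or filled (6 weeks). The 6 week SHR arrays lie near 34 on component 1 and SHR replicate 1 of 3 weeks lies apart from replicates 2 and 3. Right, the median log2 difference of 6 minus 3 weeks in 10 equal groups of genes by mean level, which fell from 0.40 to −0.018 in SHR.

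In SHR, 10202 of 21180 genes were called (48.2%). At 6 weeks 6845 genes were raised (32.3% of those tested) and 3357 were lowered (15.8%). The 3 values of each age did not overlap for 11569 genes (54.6%). The median difference of all genes was 0.09, and it rose with falling level, from −0.018 in the brightest of 10 equal groups of genes to 0.40 in the dimmest. The balance of directions rested on the scaling: raised genes made up 67.1% of those called with the 75th percentile, 46.2% with the array median, 49.96% with quantile normalization and 49.8% with cyclic loess. Leaving out SHR replicate 1 of 3 weeks gave 10449 called genes, and treating the slide as a random block gave 6597. No value within a slide can be had, since no slide held both ages of SHR. For the same reason the slide block, wherever it is used below, cannot take a slide effect out of the age difference.

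The age comparisons of WKY and SHRSP share no array with that of SHR, and they were used to sort the genes that SHR changed. In WKY 4903 genes were raised (23.1%) and 4506 lowered (21.3%), and in SHRSP 3677 were raised (17.4%) and 1286 lowered (6.07%). Of the genes called in SHR, 989 were called in the same direction in both other strains, 698 of them raised and 291 lowered. These are called the shared genes here. A further 487 were called in the opposite direction in SHRSP and were not called in the direction of SHR in WKY, and these are called the opposite-direction genes. The remaining 8726 were not placed in either set.

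Genes raised in SHR were raised in SHRSP in 1741 cases, which is 25.4% of the SHR genes and 47.3% of the SHRSP genes, and were lowered there in 299 cases (4.37% and 23.3%). Genes lowered in SHR were lowered in SHRSP in 538 cases (16.0% and 41.8%) and raised there in 325 (9.68% and 8.84%). With WKY, 1880 genes were raised in both (27.5% of the SHR genes and 38.3% of the WKY genes), while 2123 were raised in SHR and lowered in WKY (31.0% and 47.1%). The last number was larger than the count raised in both.

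**Figure D2:**
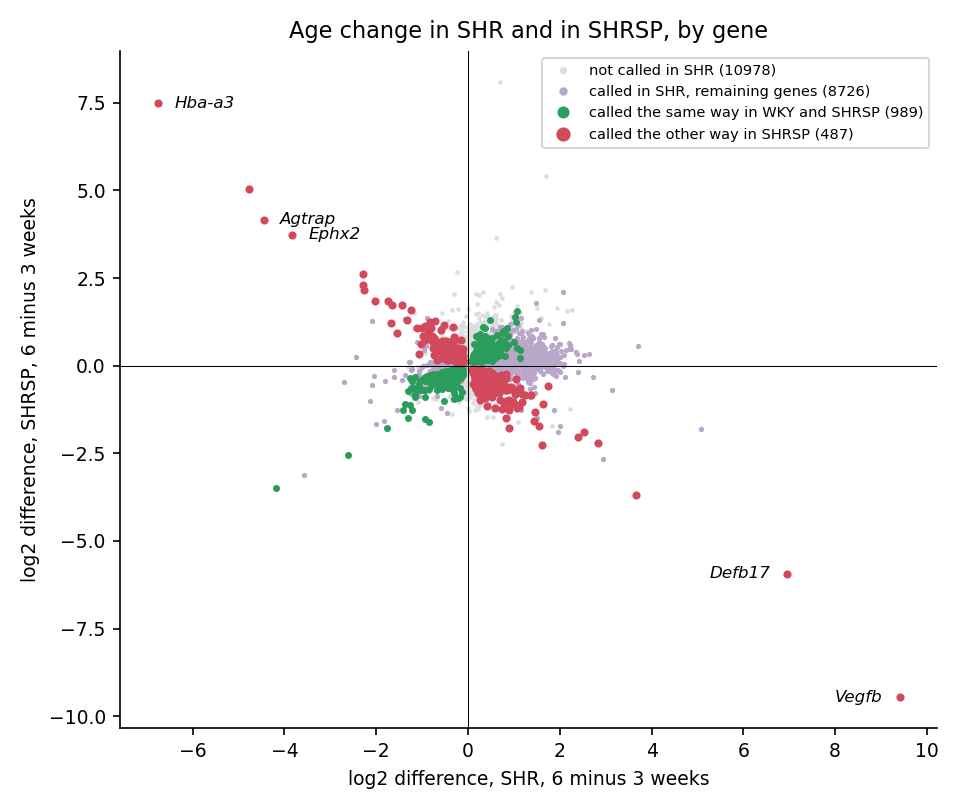
Each point is a gene, placed by its log2 difference of 6 minus 3 weeks in SHR (horizontal) and in SHRSP (vertical). The 487 opposite-direction genes lie at the upper left and lower right, with Vegfb, Defb17, Hba-a3, Agtrap and Ephx2 farthest out, and the 989 shared genes lie along the other diagonal near the centre.

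The opposite-direction genes held the steepest differences of the whole comparison, and they are described apart from genes of maturation. Some of them are also members of the gene lists, where counts with and without them are given if they differ by much. The probes of Agtrap, Vegfb and Ephx2 are shown first because these genes set the scale, with the first 30 of the 60 bases that each probe carries. Probe positions are those of the array design, on rat build rn4, and the arrays' own files give them without saying whether they lie in an exon or an untranslated region, which was not analysed here. The Ephx2 probe is placed across a span longer than the probe, so that its bases come from separate blocks of the genome.
Agtrap, chr5:165154364-165154423, minus strand: agaagacaagaagcccaagatgttttctcg
Vegfb, chr1:209657830-209657889, minus strand: aagccttcagtttgatcttcaccaaatgga
Ephx2, chr15:45535737-45538220, minus strand: ggctttcgtgttctagctatagacatgaaa

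Agtrap encodes the angiotensin II type 1 receptor-associated protein, which dampens signalling by that receptor. Its SHR levels were −0.36, −0.34 and −0.32 at 3 weeks and −4.86, −4.79 and −4.73 at 6 weeks. Every 6 week array was far below every 3 week array, and replicates differed little. The difference was −4.45 ± 0.05 (SE, n = 3 per age, limma adjusted p = 7.67e-16). In SHRSP the same probe went the other way, from a mean of −4.40 to −0.24, a difference of 4.16. In WKY it stayed high, with means of −0.51 and −0.28, and the difference of 0.23 was also called (limma adjusted p = 0.0031).

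Vegfb, a growth factor of the vascular endothelial growth factor family, read −9.48, −8.78 and −9.17 in SHR at 3 weeks and 0.29, 0.28 and 0.22 at 6 weeks. All 3 early arrays were not well above background, and all 3 late arrays were bright. The 6 week level was at least 259-fold higher than at 3 weeks, taking for each dim array the higher of the probe's own signal and the lowest signal among probes well above background. The fitted difference, 9.41 ± 0.13 (SE, limma adjusted p = 3.82e-15), rests on signals below background and is not an exact size. SHRSP showed the mirror image, with means of 0.43 at 3 weeks and −9.02 at 6 weeks, the latter not well above background, and WKY was bright at both ages, with means of 0.40 and 0.37.

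Ephx2 encodes soluble epoxide hydrolase, the enzyme that hydrolyses vasodilator epoxides of arachidonic acid. SHR levels were −3.47, −3.42 and −3.37 at 3 weeks and −7.66, −6.91 and −7.21 at 6 weeks. The groups lay wide apart, although the late arrays varied more than the early ones and 2 of the 3 were well above background. The difference was −3.84 in SHR, 3.73 in SHRSP and 0.19 in WKY, the last not called.

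**Figure D3:**
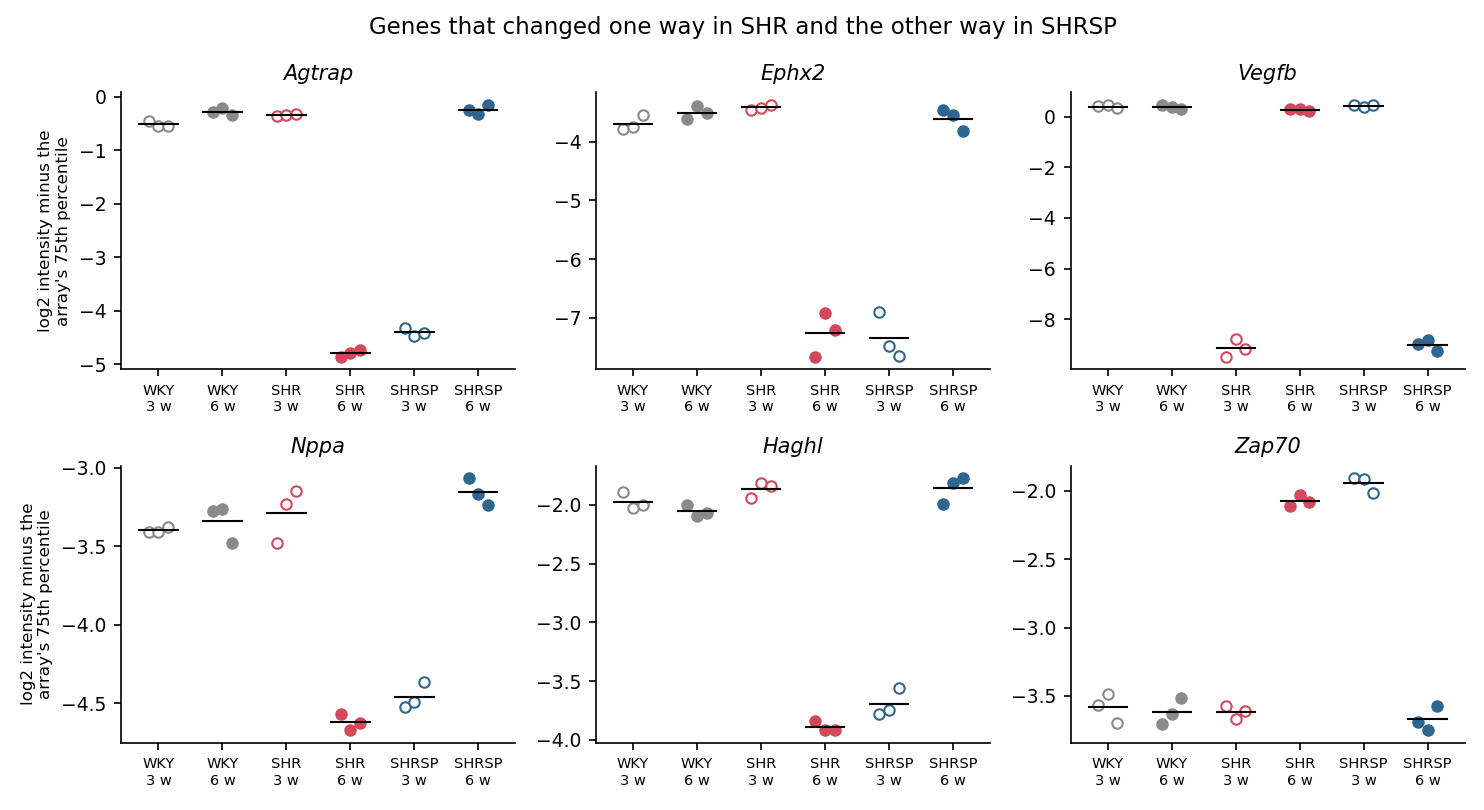
Level of 6 opposite-direction genes on each of the 18 arrays (log2 intensity minus the array's 75th percentile), with open circles for 3 weeks, filled circles for 6 weeks and bars for group means. In each panel SHR at 3 weeks resembles SHRSP at 6 weeks and SHR at 6 weeks resembles SHRSP at 3 weeks, as in Agtrap with means of −0.34, −0.24, −4.79 and −4.40, while WKY is nearly level.

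The other named genes of this set also changed in opposite directions in SHR and SHRSP. That direction is the rule that chose the set, so it is no separate result, and the sizes are given as description. Nppa, which encodes atrial natriuretic peptide, fell by 1.33 in SHR and rose by 1.30 in SHRSP, and its probe at chr5:165074636-165074695 lies close to that of Agtrap. Haghl fell by 2.03 in SHR and rose by 1.84 in SHRSP. Myoc, the gene of myocilin, fell by 1.74 and rose by 1.85. Lgals7 (galectin-7), Ceacam16, Sgca (alpha-sarcoglycan) and Tnn (tenascin N) fell by 1.24, 1.55, 1.11 and 1.07 in SHR, and each was called in the other direction in SHRSP. Among the genes that SHR raised, Zfp296 rose by 2.53 in SHR and fell by 1.89 in SHRSP.

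Zap70, a kinase of T cell receptor signalling, read −3.58, −3.67 and −3.61 in SHR at 3 weeks and −2.11, −2.03 and −2.08 at 6 weeks. The 6 values formed separate tight groups, with a difference of 1.54 ± 0.06 (SE, limma adjusted p = 1.12e-09), against −1.73 in SHRSP and −0.04 in WKY. Sort1 (sortilin, a sorting receptor) rose by 1.64 in SHR, and a second probe of it moved by 1.61. Hes1, a repressor downstream of Notch, rose by 1.47, Tceal7 by 1.44, Pcdhga8 by 1.37, Banp by 1.25 and Eif1ad by 1.18, and all 5 were lowered in SHRSP. Of these 5, only Hes1 was called in WKY, where it was lowered with a difference of −0.43.

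A probe below background on all arrays of an age has only a bound there. Defb17, a beta-defensin, was not well above background on any SHR array at 3 weeks, reached −1.87, −1.93 and −2.06 at 6 weeks and was at least 55.7-fold higher then (limma adjusted p = 2.89e-07). Hba-a3, an alpha-globin gene, fell from −0.72, −0.76 and −0.97 to −7.75, −7.83 and −7.17, with 1 of 3 late arrays well above background. In SHRSP it was well above background on no array at 3 weeks and on all 3 at 6 weeks.

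Over the whole set of 487, the median size of the difference was 0.33 in SHR and 0.35 in SHRSP, against 0.11 in WKY, where 332 were not called. The sizes in SHR and SHRSP follow in part from the rule that chose the set. Contrasts of SHRSP against SHR use the same arrays and are given only side by side: 914 of all genes differed at 3 weeks (4.32%) and 9061 at 6 weeks (42.8%). Within the set 277 differed at 3 weeks, 465 at 6 weeks and 255 at both ages with opposite sign. For 31 genes the age change was at least 2-fold in both SHR and SHRSP. Another 137 genes moved in opposite directions in SHR and SHRSP but were called in the direction of SHR in WKY, and so stayed outside the set. Zfp597 was the steepest of them among the named genes, at 2.94 in SHR, −2.65 in SHRSP and 0.45 in WKY.

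The share of genes in the set varied between chromosomes. Of 19653 genes with a position, 2.29% belonged to it, and the share was 5.39% on chromosome 19 (30 of 557 genes) and 0.842% on chromosome 12 (5 of 594). Chromosome 10 held a stretch at 14988387 to 15642752 where 8 of 41 tested genes belonged to the set, namely Chtf18, Rpusd1, Haghl, Decr2, Pgap6, Rgs11, Hba-a3 and Nprl3. On chromosome 19 of the same build, rn4, 8 of 17 tested genes between 53751646 and 54736211 did so, Tubb3, Afg3l1, Dbndd1, Rab4a, Nup133, Abcb10, Galnt2 and Cog2. These genes were named after their positions were seen.

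The shared genes carry the part of the SHR age change that both other strains repeated. Their median difference in SHR was 0.27 for those raised and −0.43 for those lowered, and 7 raised and 21 lowered genes changed at least 2-fold. Pnlip, the gene of pancreatic lipase, read −0.92, −0.90 and −0.95 at 3 weeks and −2.23, −2.41 and −2.35 at 6 weeks. The groups did not overlap, and the difference of −1.41 ± 0.07 (SE, limma adjusted p = 1.14e-08) was close to −1.30 in WKY and −1.26 in SHRSP. Neither difference from the SHR change was called (limma adjusted p = 0.42 for WKY and 0.31 for SHRSP).

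Other lowered genes of this set were Aim2, a sensor of cytosolic DNA (−1.37), the fast skeletal myosin gene Myh1 (−1.27), the imprinted genes Mkrn3 (−1.26) and H19 (−1.23), C1qtnf6 (−1.25), Fcrl2 (−1.21) and C10h16orf89 (−1.30). A second probe of C1qtnf6 moved by −0.06. Casr, the calcium-sensing receptor, fell by 1.17 and Klhl35 by 1.16. Mkrn3 levels were −2.60, −2.46 and −2.47 at 3 weeks and −3.84, −3.72 and −3.76 at 6 weeks, so all late arrays were lower. MKRN3 is known as a brake on the onset of puberty. Its difference was −0.88 in WKY and −1.13 in SHRSP.

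Raised shared genes moved by smaller steps at the median. Acvr1c, which encodes the activin receptor ALK7, read 0.22, 0.34 and 0.27 at 3 weeks and 1.45, 1.36 and 1.44 at 6 weeks. All late arrays were higher, with a difference of 1.14 ± 0.06 (SE, limma adjusted p = 1.24e-08), against 0.66 in WKY and 0.21 in SHRSP. Qdpr, which regenerates the tetrahydrobiopterin cofactor of monoamine synthesis, rose from 3.49, 3.45 and 3.46 to 4.40, 4.32 and 4.26. Its difference was 0.85 in SHR, 0.76 in WKY and 1.09 in SHRSP.

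Impg1 rose by 1.14, Smim5 by 1.06, Acsm5 by 1.05 and Rbsn by 1.01. Other probes gave less for Smim5 (0.40 on each of 2) and Rbsn (0.07). Spef2 of the ciliary axoneme rose by 0.88, Slc4a5, a bicarbonate transporter of the choroid plexus, by 0.78 and the chemokine gene Ccl2 by 0.78. The probes of Smim5, Spef2, Slc4a5 and Ccl2 were dim at both ages.

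**Figure D4:**
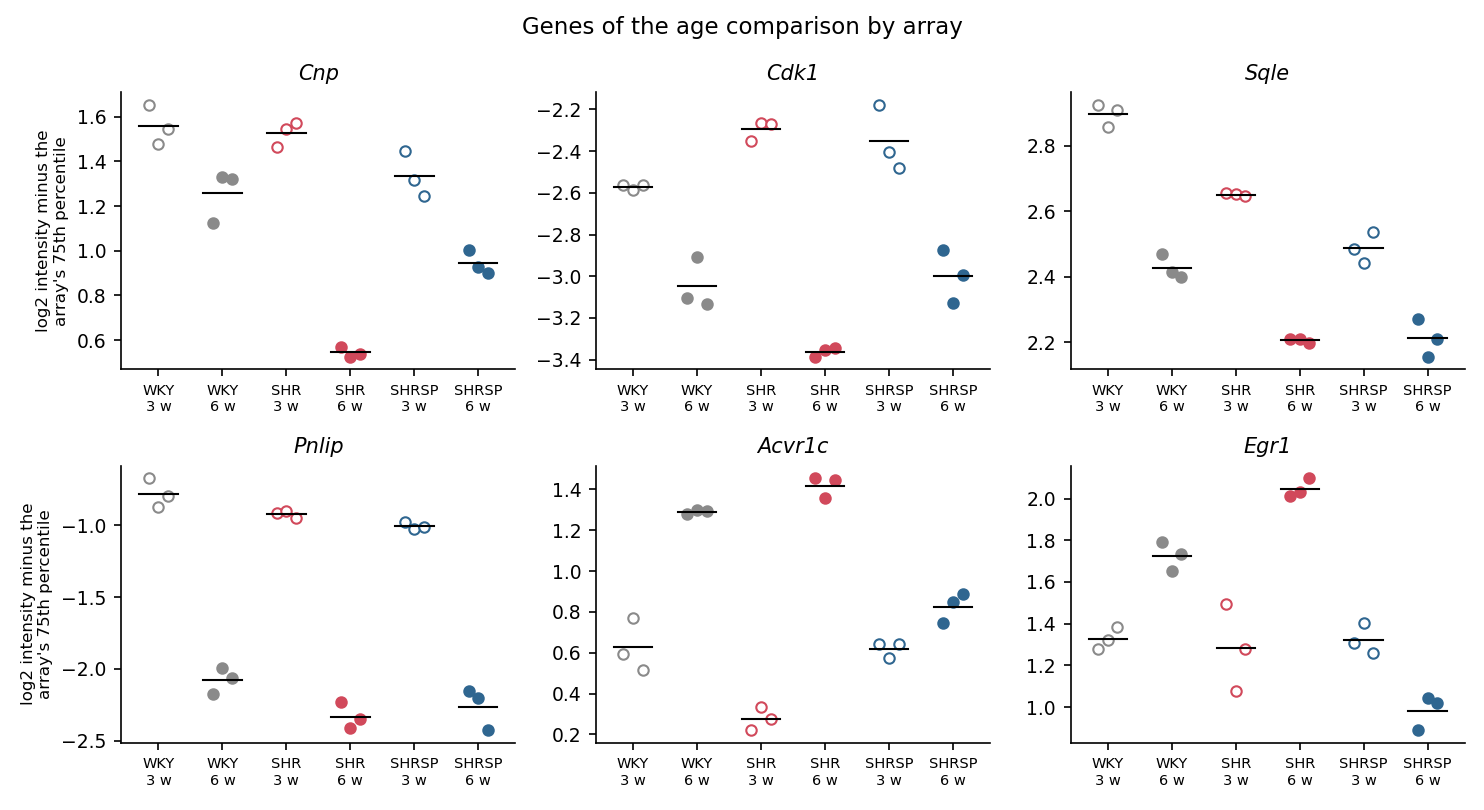
Level of 6 genes on each of the 18 arrays (log2 intensity minus the array's 75th percentile), open for 3 weeks and filled for 6 weeks, with bars at group means. Cnp, Cdk1, Sqle and Pnlip fell in all 3 strains and Acvr1c rose in all 3, while Egr1 rose in SHR and WKY and fell in SHRSP.

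Genes of mature oligodendrocytes fell. Of 24 measured, 16 were lowered and 4 raised in SHR, with a median difference of −0.47 against 0.09 for all genes. Cnp, a myelin phosphodiesterase, read 1.46, 1.54 and 1.57 at 3 weeks and 0.57, 0.53 and 0.54 at 6 weeks. The ages did not overlap, and the difference was −0.98 ± 0.07 (SE, limma adjusted p = 1.40e-07), against −0.30 in WKY and −0.39 in SHRSP. Cldn11, the tight junction protein of myelin, fell by 0.88 and the tetraspanin gene Tspan2 by 0.73.

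Among members chosen after their values were seen, Mag and Mog fell by 0.76 and 0.75, while the Mbp probe gave 0.07 ± 0.06 (SE) and was not called. Tmem125 and Plekhb1 rose by 0.72 and 0.25. The other strains had smaller medians, with 9 lowered and 3 raised in WKY (median −0.09) and 9 lowered and 5 raised in SHRSP (median −0.05). The SHR change itself differed from that of WKY for 16 of the 24 and from that of SHRSP for 13, all 13 more negative in SHR. Genes whose age change differed between SHR and WKY made up 39.7% of all genes tested, and between SHR and SHRSP 18.1%. In whole brain, fewer cells of a type and less RNA per cell cannot be told apart.

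Genes of precursors and newly formed oligodendrocytes moved likewise, with 9 of 17 lowered and 1 raised. Neu4, a sialidase, fell from −2.17, −2.09 and −2.18 to −3.04, −3.33 and −3.25, a difference of −1.06. Enpp6, a choline phosphodiesterase that marks newly forming oligodendrocytes, fell by 0.83, Tmem163 by 0.66 and Bmp4 by 0.36. Neu4 and Enpp6 also fell in WKY (−0.47 and −0.39) and SHRSP (−0.53 and −0.27). The counts were 16 lowered myelin genes and 6 lowered precursor genes with the slide as a random block.

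The sterol pathway fell almost as a whole. Of 24 genes of cholesterol synthesis and its control, 21 were lowered, 1 was raised and 2 were not called, and the median was −0.42. The count of 21 lowered was the same with the slide as a random block, without SHR replicate 1 of 3 weeks and under each scaling tried. The block cannot separate slide from age here, so the unchanged count does not test for an effect of the slide. Sqle, squalene epoxidase, read 2.65, 2.65 and 2.65 at 3 weeks and 2.21, 2.21 and 2.20 at 6 weeks, a clean step of −0.45 ± 0.04 (SE, limma adjusted p = 1.38e-06). It was −0.47 in WKY and −0.28 in SHRSP.

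Tm7sf2, a sterol reductase, fell by 0.99 in SHR and 0.44 in WKY, with −0.03 in SHRSP. Dhcr7, which performs the last step to cholesterol, fell by 0.71, and Hsd17b7, a sterol ketoreductase, by 0.66. Hsd17b7 was raised in SHRSP (0.31). The raised member was Fdft1, squalene synthase (0.32), which was lowered in WKY (−0.65), and it was named after its value was seen. In WKY 14 members were lowered and none raised, and in SHRSP 10 were lowered and 1 raised.

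Promoters of this pathway are shown because its members moved together. They come from RefSeq on rat build GRCr8, as the 250 bases before the transcript start, which 16 of the 24 genes have. The CCAAT box, searched as CCAAT on both strands, was found for 14 of these 16 genes and in 34.0% of all 33469 promoters. A gene was counted if any of its promoters held the letters, while the share of all was taken over single promoters. The 2 shares are therefore not in the same unit. The sterol response element, searched as TCACNCCAC on both strands, was found for none of the 16 genes and in 0.974% of all promoters. Other spellings of this element were not searched, so its absence holds for these letters in this window only. Capitals mark CCAAT, or ATTGG where it lies on the other strand. These are matches of letters in a window and no evidence of binding.
Tm7sf2, chr1:212789542-212789791, minus strand: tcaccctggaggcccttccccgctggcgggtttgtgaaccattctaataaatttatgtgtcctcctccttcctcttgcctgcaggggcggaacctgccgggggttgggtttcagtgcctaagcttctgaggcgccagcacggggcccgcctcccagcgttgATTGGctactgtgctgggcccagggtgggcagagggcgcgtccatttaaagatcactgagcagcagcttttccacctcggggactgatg
Hsd17b7, chr13:84722755-84723004, minus strand: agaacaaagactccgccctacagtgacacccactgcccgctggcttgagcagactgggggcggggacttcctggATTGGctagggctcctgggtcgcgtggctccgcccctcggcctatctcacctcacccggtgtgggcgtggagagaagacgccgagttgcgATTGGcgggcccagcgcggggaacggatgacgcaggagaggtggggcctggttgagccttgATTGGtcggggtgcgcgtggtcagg

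Genes of dividing cells fell. Of 31 genes of DNA replication and the cell cycle, 17 were lowered and 3 raised in SHR, with a median of −0.25. The median was −0.08 with normexp background correction, −0.43 with quantile normalization and −0.46 with cyclic loess, and 12 were lowered with the slide as a random block. Cdk1, the mitotic kinase, read −2.35, −2.26 and −2.27 at 3 weeks and −3.39, −3.36 and −3.35 at 6 weeks, without overlap, and fell by 1.07 ± 0.08 (SE, limma adjusted p = 4.27e-07). It fell by 0.48 in WKY and 0.65 in SHRSP. The spindle genes Kif11, Bub1 and Nusap1 fell by 0.78, 0.59 and 0.50, and all 3 also fell in both other strains. WKY lowered 13 members and raised 1, and SHRSP lowered 8 and raised 1.

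Genes of immature neurons followed, with 11 of 19 lowered and 1 raised and a median of −0.19. Marcksl1, an actin regulator of growing neurons, fell from 3.63, 3.58 and 3.57 to 3.00, 3.10 and 2.96. Tubb3, the neuronal tubulin, fell by 0.27, but it rose by 0.31 in SHRSP and is among the opposite-direction genes. Dpysl3 and Nrep fell by 0.35 and 0.42. WKY lowered 4 of these genes and raised 2, and SHRSP lowered 3 and raised 2.

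Collagens and matrix genes of growing tissue were lowered in 10 of 21 cases and raised in 3. Col4a1, a chain of basement membrane collagen, fell by 0.72, although its second probe moved by 0.31. Sparc and Nid1, also of basement membranes, fell by 0.45 each. Lox, which cross-links collagen, fell from −3.97, −3.93 and −4.01 to −4.93, −4.87 and −4.94, but rose by 0.73 in SHRSP and is an opposite-direction gene. SHRSP raised 9 and lowered 3 of the 21, and WKY raised 5 and lowered 6. Without the opposite-direction genes, Lox and Tnc, 8 of 19 were lowered and the median went from −0.14 to −0.06.

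Nuclear genes of the respiratory chain were lowered by small steps. SHR lowered 16 of 30 and raised none, with a median of −0.14, WKY lowered 18 and SHRSP 7, each also raising none. Atp5pb, a stator subunit of ATP synthase, fell by 0.37, and the complex I genes Ndufs3, Ndufb5 and Ndufb8 by 0.25, 0.24 and 0.18. With the slide as a random block 10 were lowered in SHR. Genes of cytosolic ribosomal proteins had 6 raised and 6 lowered of 38 in SHR, against 19 raised in WKY and 21 in SHRSP. In SHR their share raised lies below the 32.3% of all genes and their share lowered near the 15.8% of all genes.

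**Figure D5:**
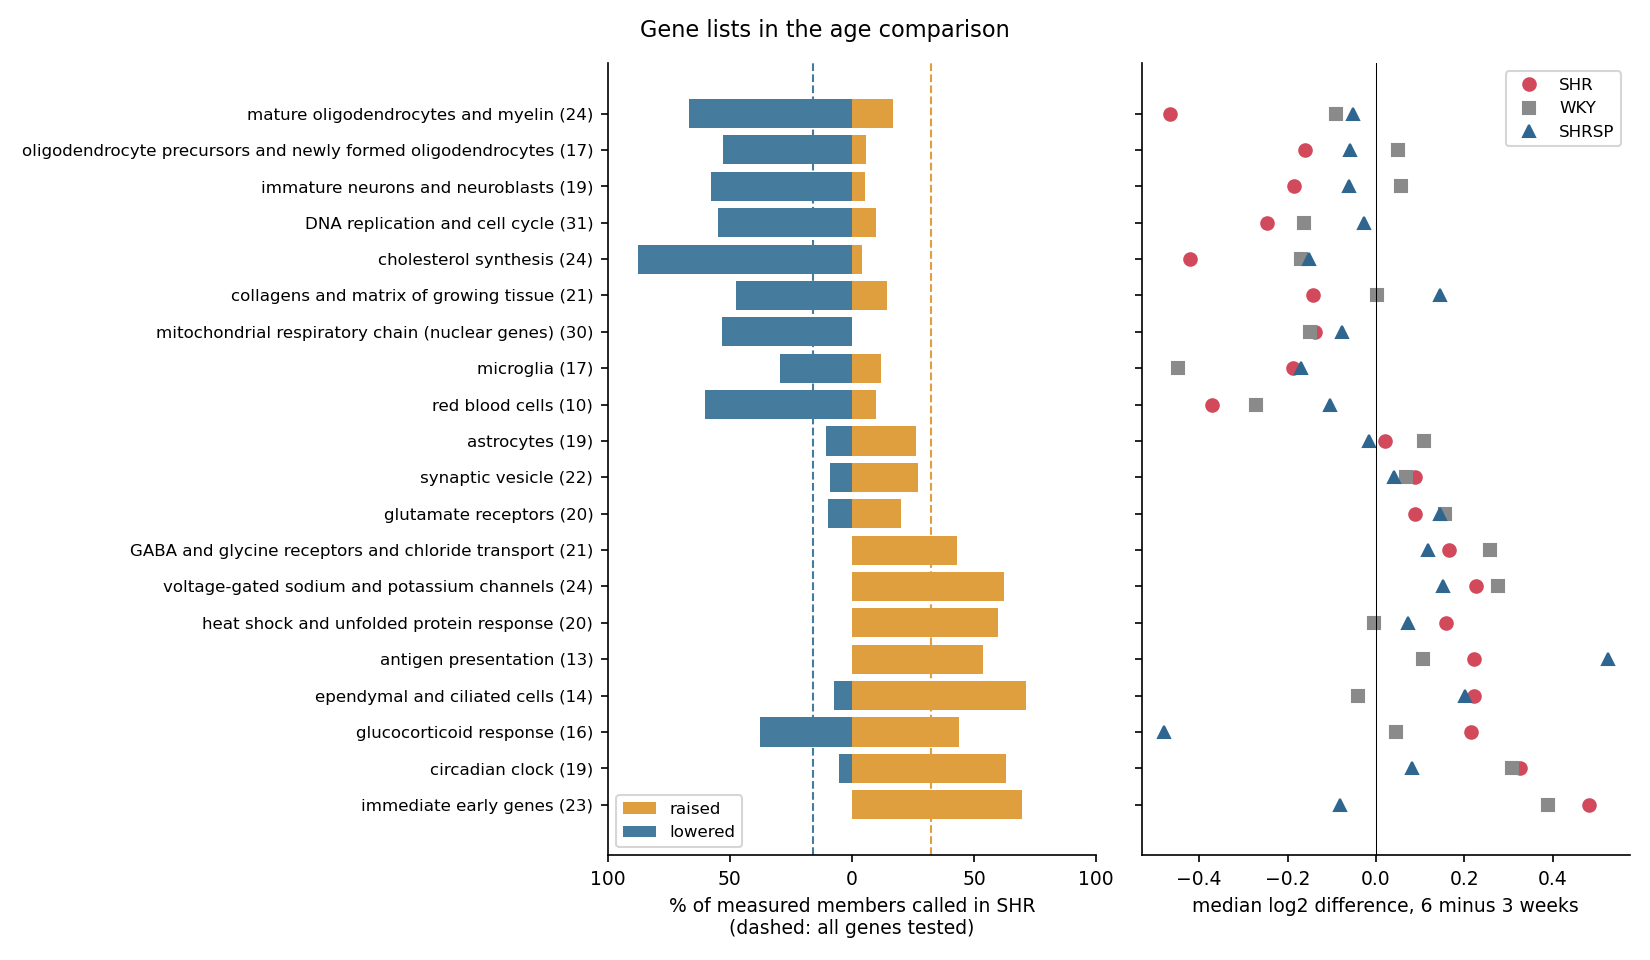
Left, the percentage of the measured members of each of 20 gene lists (number in brackets) that were raised (orange, to the right) or lowered (blue, to the left) in SHR, with dashed lines for all genes tested. Right, the median log2 difference of 6 minus 3 weeks of each list in SHR, WKY and SHRSP. Of the 20 lists drawn, cholesterol synthesis and myelin lie lowest in SHR, at −0.42 and −0.47, and immediate early genes highest, at 0.48.

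Channel genes rose. Of 24 genes of voltage-gated sodium and potassium channels and their kin, 15 were raised and none lowered in SHR (median 0.23), 16 were raised and 1 lowered in WKY, and 7 were raised and 1 lowered in SHRSP. Kcna2, a potassium channel of axons, read −0.27, −0.31 and −0.41 at 3 weeks and 0.26, 0.10 and 0.16 at 6 weeks. All late arrays were higher, by 0.51 in the mean, with 0.35 in WKY and 0.38 in SHRSP. Kcnd3 rose by 0.66 and Kcnc2, of fast-spiking neurons, by 0.35. Kcnj3, an inward rectifier, rose by 0.60 in SHR and 0.44 in SHRSP, with −0.25, not called, in WKY.

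Of 21 genes of GABA and glycine receptors and chloride transport, 9 were raised and none lowered (median 0.16). With the array median as the scale the counts were 3 and 3, and with the slide as a random block 4 were raised. Gabra4, Gabrg1 and Glra2 rose by 0.23, 0.25 and 0.51, and rose in WKY too. Glra1, the adult glycine receptor subunit, read −1.82 on replicate 1 and −2.92 and −3.01 on replicates 2 and 3 at 3 weeks, against −1.20, −1.22 and −1.35 at 6 weeks. It rose by 1.33 in SHR and fell by 1.26 in WKY.

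Glutamate receptor genes had 4 raised and 2 lowered of 20, among them Grik3 (0.56) raised and Grm4 (−0.58) lowered. Synaptic vesicle genes had 6 raised and 2 lowered of 22, with Syt1 at 0.34 and Rab3a at −0.32, the latter not called with the slide as a random block, which left 2 raised and none lowered. Axon guidance genes had 6 raised and 3 lowered of 26, with Dcc, a netrin receptor, raised by 0.76 and Sema6a lowered by 0.51 (second probe −0.11). Proteoglycan and perineuronal net genes had 4 raised and 3 lowered of 14. The shares raised in these 4 lists lie below the 32.3% of all genes. The shares lowered lie below the 15.8% of all genes, except in the proteoglycan and perineuronal net list. With the array median as the scale lowered genes outnumbered raised ones in glutamate receptors (4 against 3), synaptic vesicles (7 against 2) and axon guidance (8 against 4). Adamts4, a proteinase in the proteoglycan and perineuronal net list, fell by 0.74.

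Immediate early genes, which neurons switch on within minutes of activity, rose in SHR. Of 23 measured, 16 were raised and none lowered, with a median of 0.48. Fos read −2.60, −2.91 and −2.82 at 3 weeks and −1.78, −1.998 and −1.98 at 6 weeks. No array of 1 age reached the other, and the difference was 0.86 ± 0.09 (SE, limma adjusted p = 1.75e-05). Egr1 rose by 0.76, and its second probe moved by 0.69, Nr4a3 rose by 0.92 (1.69 on its second probe) and Nr4a2 by 0.48.

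WKY raised 17 and lowered 1, with 13 genes raised in both, whereas SHRSP raised 2 and lowered 6. The SHR change exceeded that of SHRSP for 12 of the 23 genes by the test of the difference, as it did for 8.42% of all genes. Fos fell by 0.97 in SHRSP and Egr1 by 0.34. Among genes named after their values were seen, Npas4, Egr2 and Arc rose by 1.45, 1.34 and 1.02 in SHR, and Egr2 and Arc fell by 0.67 and 0.87 in SHRSP. Npas4 was well above background on 1 of 3 arrays at 3 weeks, and its call was lost with the slide as a random block, where 13 members were raised. The labels do not give the time of day or the manner of death.

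The Egr1 promoter is shown because it held letters of the serum response element, a motif through which activity is known to drive this gene. Only the letters CCATATTAG were searched, on both strands, and they are marked in capitals. Of the 17 immediate early genes with a promoter in RefSeq, 1 had them, Egr1, as did 0.0777% of all promoters. Other spellings of the element, in Egr1 or elsewhere, were neither searched nor marked, so these counts hold for this spelling only. The cyclic AMP response element was searched as TGACGTCA, which reads the same on both strands. It was found for 4 of the 17 genes (Btg2, Dusp1, Ier2 and Jund) and in 1.59% of all promoters. Of these 4, named after the search, only Jund was called in SHR (0.15), and not with the slide as a random block.
Egr1, chr18:26736828-26737077, plus strand: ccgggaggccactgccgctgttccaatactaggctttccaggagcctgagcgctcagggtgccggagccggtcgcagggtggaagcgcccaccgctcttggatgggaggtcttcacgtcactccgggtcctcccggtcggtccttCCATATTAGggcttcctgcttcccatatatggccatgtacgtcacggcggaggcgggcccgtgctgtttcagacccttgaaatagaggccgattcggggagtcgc

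Clock genes were raised in 12 of 19 cases and lowered in 1. Per2, a repressor arm of the clock, read −3.18, −3.18 and −2.99 at 3 weeks and −2.44, −2.29 and −2.26 at 6 weeks, higher on every late array, with a difference of 0.78. Bhlhe40, Bhlhe41 and Cry1 rose by 0.74, 0.56 and 0.48. WKY raised 13 and lowered 2 of the list, and SHRSP raised 4 and lowered 1. Per2 was not called in WKY (0.16) or in SHRSP (−0.15), and its SHR change differed from both.

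Glucocorticoid response genes split in SHR, with 7 raised and 6 lowered of 16, while SHRSP raised 1 and lowered 11. Nr3c1 and Nr3c2, the receptors for glucocorticoids and mineralocorticoids, rose by 0.49 and 0.42. Tsc22d3, a glucocorticoid-induced repressor, fell by 0.49 and Hif3a rose by 0.49. The second probe of Nr3c2 moved by 0.13. With the slide as a random block 5 were raised and 3 lowered. Without the opposite-direction genes, Fkbp5 and Zbtb16, 5 of 14 were raised and the median went from 0.21 to 0.07.

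Heat shock and unfolded protein genes were raised in 12 of 20 cases and lowered in none. Hspa1b, an inducible heat shock protein, read −2.98, −3.39 and −3.12 at 3 weeks and −0.56, −0.59 and −1.05 at 6 weeks. The late arrays were all much higher, by 2.42 ± 0.14 (SE, limma adjusted p = 3.98e-08), whereas WKY rose by 0.37 and SHRSP gave 0.13, not called. Hspb1, Ddit3 and Hsph1 rose by 0.65, 0.39 and 0.36. The SHR change of 12 of the 20 genes differed from WKY, 11 of them being higher in SHR. Of all genes 39.7% differed from WKY, and 23.6% were higher in SHR.

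Markers of other cells moved as follows, and their part in the results above was not tested. Microglial genes were lowered in 5 of 17 cases and raised in 2 in SHR, against 15 lowered in WKY, and with the slide as a random block none was lowered. Gpr34 and C1qb fell by 0.52 and 0.30, while Cx3cr1 and Itgam rose by 0.75 and 0.35, the latter by 0.17 on its second probe. The log2 of the summed levels of the list was 5.18 to 5.29 at 3 weeks and 5.15 to 5.28 at 6 weeks. Astrocyte genes had 5 raised and 2 lowered of 19, shares below the 32.3% raised and 15.8% lowered of all genes. Under the array median 3 were raised and 5 lowered. Glul and S100b rose by 0.29 and 0.25, the latter by 0.91 on its second probe. Sox9 rose by 0.72, but its second probe moved by −0.05.

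Ependymal and ciliated cell genes were raised in 10 of 14 cases, and in 6 with the slide as a random block, with Dnah11 and Dnah9, motor proteins of cilia, at 0.69 and 0.63. Antigen presentation genes were raised in 7 of 13 cases and lowered in none, and in 4 with that block. RT1-A2, a class I gene, rose by 0.67. SHRSP raised 12 of these 13. Red blood cell genes were lowered in 6 of 10 cases and raised in 1, with the block in 2 and 1, and their summed level went from 8.13 to 8.32 at 3 weeks to 7.91 to 7.94 at 6 weeks. Among them Slc4a1 and Ahsp fell by 0.85 and 0.60, and the beta-globin probe Hbb-b1, named after its value was seen, by 0.42. Ahsp and Hbb-b1 were not called with the block. Hba-a3 and Hbg1 of this list are opposite-direction genes, and without them 5 of 8 were lowered and none raised.

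Endothelial genes had 5 raised and 5 lowered of 19. Without the opposite-direction genes, Pecam1 and Slc7a5, 4 of 17 were raised and 4 lowered. Pecam1 and Cdh5 rose by 0.56 and 0.51, and the lowered members are not named here. Of all genes 32.3% were raised and 15.8% lowered, so the endothelial share lies below the first and above the second. Pericyte and smooth muscle genes had 5 raised and 5 lowered of 14, both shares above those of all genes. Meningeal genes had 3 and 1 of 17 and choroid plexus genes 2 and 1 of 17, all below them. The choroid plexus sum spread from 6.33 to 7.47 between the 6 week arrays. Blood leukocyte genes had 4 raised and 1 lowered of 12, a share raised near that of all genes. Interferon genes had 7 raised and none lowered of 22, a share raised just below that of all genes. With the array median as the scale 2 interferon genes were raised and 2 lowered, and the median of the list went from 0.05 to −0.04.

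Pituitary genes varied between arrays of the same group, with a summed level from −0.40 to 2.54 at 3 weeks and from −0.40 to 0.72 at 6 weeks. Only the transcription factor gene Pou1f1 was called (0.91), and not with the slide as a random block. Gh1, growth hormone, named after its values were seen, read −2.46, −4.56 and −8.42 at 3 weeks and −0.97, −2.61 and −9.76 at 6 weeks. The ages overlapped fully. Pineal and photoreceptor genes had 1 of 10 raised, Gnat1, which was not called with that block and moved by 0.19 on its second probe.

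Markers of brain regions gave mixed counts. Granule cells of the cerebellum had 4 raised and 3 lowered of 18, Purkinje cells 5 and 4 of 11, interneurons 4 and 5 of 17, striatal neurons 4 and 2 of 16, hypothalamic peptides 3 and 6 of 16 and monoamine and cholinergic neurons 2 and 1 of 15. Thyroid hormone response genes had 4 raised and 2 lowered of 13. Except in Purkinje cells, the shares raised lie below the 32.3% of all genes. The shares lowered lie above the 15.8% of all genes in hypothalamic peptides, Purkinje cells and interneurons, and near or below it in the others. With the slide as a random block 3, 1 and 2 members of these lists were lowered. Without Car8, an opposite-direction gene, the median of the Purkinje list went from −0.11 to 0.02. Itpr1, the calcium release channel abundant in Purkinje cells, rose by 0.44, with 0.38 in WKY and 0.41 in SHRSP. Hox genes of the hindbrain and cord varied within an age: Hoxa5 read −1.28, −1.99 and −1.82 at 3 weeks and −4.61, −2.49 and −4.00 at 6 weeks. Its difference of −1.999 and that of Hoxb5, −1.82, were not called with the slide as a random block.

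Of 23 measured candidate genes of blood pressure control, 7 were raised and 7 lowered. The share raised lies near the 32.3% of all genes and the share lowered above the 15.8% of all genes. Among these 14 called genes 4, Agtrap, Ephx2, Nppa and Vegfb, were opposite-direction genes, and without them 6 of 19 were raised and 4 lowered. Outside them, Agtr1a, the main angiotensin receptor, fell by 0.33, with −0.28 in WKY. Cd36, a fatty acid transporter, fell by 0.48 (second probe −0.09) and Cyp11b1 by 0.17. Gstm1 and Fbxo10 rose by 0.16 and 0.29. Chga (chromogranin A) gave 0.30 and Kcnq1 0.55, both called, but against replicate 1 of 3 weeks alone they gave −0.10 and −0.0057. The second probe of Kcnq1 moved by 0.11. Cyp11b1, Fbxo10 and Chga were not called with the slide as a random block. Agtr1b, also raised, is described with the slides. Agt gave −0.01, Ace −0.12, Add1 −0.03, Atp6ap2 −0.03, Ndufc2 −0.01, Npr3 −0.08, Spon1 0.09, Stim1 −0.08 and Cyp11b2 0.13, none of them called. The second probes of Ace and Spon1 moved by 0.16 and −0.13, against the direction of the first.

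The remaining 8726 genes hold the steep rises that slide and age share. Of these, 504 were raised at least 2-fold and 31 lowered. Agtr1b, the second rodent angiotensin receptor gene, read −3.31 on replicate 1 and −4.56 and −5.10 on replicates 2 and 3 at 3 weeks, and −2.08, −2.08 and −2.13 at 6 weeks. The array of slide 1 lay between those of slide 2 and slide 4. The difference was 2.23 in SHR and −2.39 in WKY, whose 3 week arrays were also on slide 1. Or8b8, an olfactory receptor gene, showed the same order, with −3.67, −5.10 and −5.50 at 3 weeks and −2.29, −2.32 and −2.60 at 6 weeks.

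This order was common among the 504 genes. They were chosen by their rise over the mean of the 3 week arrays, in which replicates 2 and 3 weigh most. Genes low on those replicates therefore enter more readily, and the count that follows is no separate test of the slide. Of the 504 genes, 431 were higher on replicate 1 than on the mean of replicates 2 and 3, by a median of 0.97. Of the 240 that WKY lowered at least 2-fold, 239 were so, and their median difference was 0.28 against replicate 1 and 1.92 against replicates 2 and 3. Among all genes 9183 of 21180 were higher on replicate 1. Of the 2123 genes raised in SHR and lowered in WKY, 2022 were higher on replicate 1. In the shared genes 312 of 989 were, and their median difference was 0.24 against replicate 1 and 0.19 against replicates 2 and 3. The WKY arrays of 3 weeks were on the slide of SHR replicate 1. Sets chosen by the WKY change are therefore chosen in part by levels on that slide, and their counts are no separate test of it.

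Other genes of this set were level between the 3 week arrays of slides 1 and 2, which says nothing of slide 4. Cort, the gene of the neuropeptide cortistatin, read 1.06, 1.06 and 1.12 at 3 weeks and −1.35, −1.42 and −1.29 at 6 weeks. It fell by 2.43 ± 0.05 (SE, limma adjusted p = 6.83e-13), fell by 0.92 in WKY and rose by 0.23 in SHRSP. Tnfaip6, a hyaluronan-binding protein of inflammation, fell by 2.09 in SHR and 0.74 in WKY and rose by 1.27 in SHRSP. Alox15, arachidonate 15-lipoxygenase, fell by 2.04 and 1.45, with −0.31, not called, in SHRSP.

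Single arrays decided others. Or12j3 reached −2.34 on replicate 2 at 6 weeks but −5.91 and −6.33 on the others, and its difference of 2.52 was not called with the slide as a random block. Abca9 was not well above background at 3 weeks and read −6.22, −5.62 and −1.26 at 6 weeks, at least 10.47-fold higher in the mean (limma adjusted p = 0.000728). Selp (P-selectin), Madcam1 and Cma1 (mast cell chymase) were not well above background on any array at 6 weeks and were at least 3.18-fold, 2.97-fold and 2.36-fold lower then.

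Where the SHR change differed from that of WKY, the leading genes outside the opposite-direction set moved as follows. Serhl2, Trappc6a and Car2 (carbonic anhydrase 2) rose in SHR by 1.96, 1.16 and 1.32, were also called raised in WKY at 0.17, 0.15 and 0.12, and fell in SHRSP by 1.89, 1.25 and 0.87. Lpar6 and Rhbdf1 fell in SHR by 1.37 and 1.12, fell in WKY by 0.27 and 0.18, and rose in SHRSP by 1.32 and 0.68. Dnai3 and Mknk1 rose in SHR by 1.18 and 0.81 and fell in WKY by 1.69 and 0.56. Qpctl fell by 0.57 in SHR, with 0.02 in WKY and 0.09 in SHRSP, but its second probe moved by 0.09 in SHR. Myh14 fell by 0.14 in SHR and rose by 0.68 in WKY, and its SHR call was lost with the slide as a random block.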

How the data were processed

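Each sample was 1 Cy3-labelled whole brain RNA on 1 array. The deposited intensity values are the authors' scanner output, background-subtracted and detrended within each array by Agilent Feature Extraction 10.5.1.1, per the file headers. The series' deposited value table held the same intensities on every spot of 18 of 18 arrays. The genome build of the probe positions, rn4, is the one the files give.

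From the processed intensity the log2 was taken and the array's 75th percentile subtracted. Spots that the scanner marked as outliers were left out (0.445% to 1.49% of an array), replicate spots were averaged, and of 30367 probes the 24282 well above background on all 3 arrays of at least 1 group were kept. The brightest kept probe stood for a gene, which left 21180 genes, 14453 of them with an established symbol. Probes were named from RefSeq by accession (17671), by symbol (2517) or by synonym (697), and 9482 kept the name in the file. Levels were fitted with limma 3.58.1 in R 4.3.3 as 6 group means over all 18 arrays (12 residual degrees of freedom, two-sided), with Benjamini-Hochberg adjustment. The number of arrays limits the precision, and p-values measure the spread between these samples, since nothing says that each array is a separate animal. On simulated data for the SHR comparison with 21100 genes, 75% of changes of 0.5 and 92% of changes of 1 on the log2 scale were recovered. Of the simulated calls 4.57% were false. The simulated arrays had independent noise and no slide or scan day effect, unlike the real ones, so these rates do not cover such effects.

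Genes named are those with an established symbol, called, above background on all 6 arrays and without overlap: the 10 steepest in each direction among shared genes, 8 among opposite-direction genes and 5 among the rest. Added were up to 3 in each direction below background at 1 age, up to 4 called members per list with the smallest p, every measured candidate blood pressure gene and up to 6 in each direction that differ most from WKY. Agtrap, Vegfb and Ephx2 were named by the request. A few genes that this rule names are not reported here, though the counts include them. The members and lists were chosen with earlier results of these data known. Of 217 named genes 49 had further kept probes, and 45 of these 51 probes moved in the same direction. Alternatives changed the scaling, the background correction, the probe filter, the block, the arrays fitted and the replicates. Replicate numbers did not pair the samples: the deviations of same-numbered arrays correlated at −0.047, −0.027 and 0.031.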

Additional observations from a re-analysis of the deposited data

Results flagged for a closer look

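The age change of SHR differed from that of WKY for 8415 genes and from that of SHRSP for 3838, by the test of the difference in the same limma model. Among the named genes the difference, as the SHR age change minus the WKY age change on the log2 scale, was −4.69 for Agtrap and −4.03 for Ephx2. It was 9.43 for Vegfb, which is not an exact size, since the probe was below background on all 3 SHR arrays of 3 weeks. In all 3 genes the sign of the difference between SHRSP and SHR turned with age under the labels as deposited. It was 2.49 for Zfp597, 1.79 for Serhl2, 1.2 for Car2 and 1.01 for Trappc6a. It was −1.1 for Lpar6, −0.94 for Rhbdf1, −1.35 for Tnfaip6 and −1.51 for Cort. These genes, from Zfp597 to Cort, all changed in the opposite direction in SHRSP. It was 2.87 for Dnai3 and 1.37 for Mknk1, which WKY lowered, and −0.83 for Myh14 and −0.59 for Qpctl.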

How the results depend on the processing

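With the slide as a random block (estimated correlation 0.275) 6597 genes were called in SHR, 4469 raised and 2128 lowered, 5289 differed from WKY and 1953 from SHRSP, and the shared and opposite-direction sets held 351 and 284. Fitting only the arrays of each comparison gave 515 and 313. The array median gave 5465 lowered genes and cyclic loess 4482 raised. The brighter part of the genes gave 5490 called, 2891 raised, 4927 differing from WKY, 308 opposite-direction genes and 4414 in neither set, from fewer genes tested. Against SHR replicate 1 of 3 weeks alone, from fewer arrays, 5202 were called, 3654 raised and 1548 lowered, 5108 differed from WKY and 2292 from SHRSP, and 3902 lay in neither set. That setting turned Th to −0.042, Chga to −0.098 and Kcnq1 to −0.0057. This setting, cyclic loess, the brighter genes and the lists without opposite-direction genes were chosen after seeing the data. Apart from the fewer genes and arrays named, the cause was not tested.

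Leaving out single arrays gave 8073 to 10449 called genes, 5479 to 6607 raised, 2594 to 3842 lowered, 7182 to 9401 differing from WKY, 2717 to 6398 differing from SHRSP, 727 to 1031 shared, 396 to 608 opposite-direction and 6797 to 9190 others. The value 6398 came without SHR replicate 1 of 3 weeks. The fit with the replicate number as a block called 9901 genes, 6682 raised and 3219 lowered, and changed the call of none of the 217 named genes. Of these, 26 lost their call with the slide block and 13 with the array median. Dim probes limit the comparison, since a level below background is only a bound.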
